A study of Mus musculus with 2 samples.

Results

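Matricellular proteins are secreted proteins that sit in the extracellular matrix and bind cell receptors, growth factors and collagen, but do not form its main fibres. The members described here are the 10 genes Thbs1, Thbs2, Thbs3, Thbs4, Spon1, Spon2, Postn, Tnc, Sparc and Sparcl1, chosen by name for protein class, of 27874 gene symbols in the deposited table. That choice, and the choice of the gene lists used below, was made with earlier results of these data known. All 10 members were found, in 39 transcript rows that were summed by symbol. RNA came from mouse colon lamina propria, the connective tissue under the gut epithelium, of strain background C57BL/6J. The K14/hyal1 library came from a genotype whose name joins K14, keratin 14, a gene of basal cells in stratified epithelia such as skin, with Hyal1, an enzyme that cuts the matrix polysaccharide hyaluronan. The Control library has the genotype Control, and neither its alleles nor the construct, age, sex or number of animals is stated in the labels. The title of the study names crosstalk between epithelia through fibroblasts and hyaluronan, and the comparison asks how these matrix genes stand in K14/hyal1 colon against Control colon. Each genotype had 1 library, so every difference here is between 2 libraries, with no replicate check, and no test was run.

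Levels are in CPM, reads per 1000000 of the library total, and an interval in brackets is an exact 95% interval for counting error only, from estimated reads. The table held 13813028 estimated reads in K14/hyal1 and 25446478 in Control, and 3 reads, the limit that a count of 0 allows, were worth 0.103 CPM in K14/hyal1 and 0.0491 CPM in Control. Hyal1 had 3.77 CPM in K14/hyal1 (3.08 to 4.53) and 3.36 CPM in Control (2.91 to 3.85), a ratio of 1.12 (0.879 to 1.42). Whether the table registers a transcript of the construct is not known here. Mitochondrially encoded genes made up 5.71% of the CPM sum in K14/hyal1 and 10.6% in Control. The 6 epithelial markers (Epcam, keratins and others) summed to 2876 CPM in K14/hyal1 and 2766 CPM in Control. The 7 smooth muscle markers summed to 3602 CPM in K14/hyal1 and 3074 CPM in Control. The 9 fibroblast markers summed to 887 CPM in K14/hyal1 and 371 CPM in Control. Both libraries thus held much epithelial and smooth muscle RNA, though sums of different genes are not shares of cells.

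As background, thrombospondins fall into a trimeric pair, Thbs1 and Thbs2, whose type 1 repeats bind the scavenger receptor CD36 and restrain blood vessel growth, and a pentameric group, Thbs3 and Thbs4, which lacks those repeats. Thrombospondin 1 can also release active TGF-beta from its latent complex. Spondins share type 1 repeats with the thrombospondins. Tenascin C and periostin are deposited by fibroblasts at sites of repair and bind integrins, and SPARC and its relative SPARC-like 1 bind collagen and calcium.

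Promoter windows were available for 6 members, and 4 are shown: Thbs2 and Tnc, which were among those at least 2-fold higher in K14/hyal1 in deposited CPM, Postn, which had the largest difference in CPM between the libraries, and Thbs4, the member with a ratio below 1. Each runs 5′ to 3′ on the gene's strand from 250 bases before to 50 bases after a RefSeq start (GRCm38.p6, the assembly of mm10), and capitals mark matches on either strand to any of 5 motifs. These were the TATA box, spelled TATAAA, the CCAAT box, the GC box, spelled GGGCGG, the AP-1 motif, spelled TGANTCA, and the E-box, spelled CACGTG. Matches to different motifs do not overlap in these windows. The Thbs2 window is chr17:14694213-14694512 (minus strand), Tnc chr4:64046887-64047186 (minus strand, 1 of the starts listed for the gene), Postn chr3:54360857-54361156 (plus strand, 1 of the starts listed) and Thbs4 chr13:92794769-92795068 (minus strand).
Thbs2: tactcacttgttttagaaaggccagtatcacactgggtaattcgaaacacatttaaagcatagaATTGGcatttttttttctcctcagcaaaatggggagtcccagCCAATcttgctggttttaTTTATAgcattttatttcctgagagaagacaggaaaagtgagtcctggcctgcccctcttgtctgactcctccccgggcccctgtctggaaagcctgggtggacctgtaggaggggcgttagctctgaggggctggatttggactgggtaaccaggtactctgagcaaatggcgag
Tnc: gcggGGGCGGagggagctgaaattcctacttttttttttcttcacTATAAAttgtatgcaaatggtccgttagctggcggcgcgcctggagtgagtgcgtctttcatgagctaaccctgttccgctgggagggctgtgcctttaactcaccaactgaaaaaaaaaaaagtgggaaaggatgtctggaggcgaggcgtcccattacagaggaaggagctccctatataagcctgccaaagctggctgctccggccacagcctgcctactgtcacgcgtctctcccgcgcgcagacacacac
Postn: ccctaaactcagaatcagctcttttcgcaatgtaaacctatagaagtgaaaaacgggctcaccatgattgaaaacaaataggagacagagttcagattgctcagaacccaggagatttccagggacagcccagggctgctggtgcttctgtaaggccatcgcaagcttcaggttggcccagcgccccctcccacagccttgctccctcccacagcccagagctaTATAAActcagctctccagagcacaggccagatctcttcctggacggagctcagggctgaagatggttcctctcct
Thbs4: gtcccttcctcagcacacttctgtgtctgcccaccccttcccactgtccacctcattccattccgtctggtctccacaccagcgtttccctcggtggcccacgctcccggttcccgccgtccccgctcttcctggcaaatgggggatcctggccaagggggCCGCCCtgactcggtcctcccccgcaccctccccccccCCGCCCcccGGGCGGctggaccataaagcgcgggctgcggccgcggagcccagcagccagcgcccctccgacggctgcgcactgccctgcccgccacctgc
The Thbs4 window had 72% G and C bases, against 48.3% in Thbs2, 54% in Tnc, 53% in Postn and a median of 52.7% over 32851 windows. It held 3 matches to GGGCGG, at 89, 51 and 42 bases before the start, and none to TATAAA. The Postn window held TATAAA at 26 bases before its start. The windows of Thbs2 (on the opposite strand) and Tnc held it farther away, at 126 and 205 bases before. Only exact spellings were searched, so variants are not marked, such as the letters tatataag that lie nearer the start in the Tnc window. The CCAAT box was matched in Thbs2, at 186 and 144 bases before the start, and GGGCGG in Tnc, at 246 bases before. The windows of Thbs3, which was also at least 2-fold higher, and Sparc are not shown. That of Thbs3 held GGGCGG at 21 and CCAAT at 98 bases before its start, both on the opposite strand. Of all windows, the TATA box letters are in 13.6%, those of the GC box in 35.7%, of the CCAAT box in 37.4%, of the AP-1 motif in 7.81% and of the E-box in 7.15%. Neither the AP-1 nor the E-box letters were in any of the 4 windows shown. These matches are a description of the letters and were not related to the levels below.

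In K14/hyal1 colon, 9 of the 10 members had a higher level than in Control colon, and 1, Thbs4, had a slightly lower level. Spon2 had the largest ratio, Thbs1, Thbs3, Thbs2, Tnc and Sparc were 2.02 to 2.68 times as high as in Control, Postn was 1.72 times as high, and Spon1 and Sparcl1 were 1.22 and 1.25 times as high. Their levels summed to 946 CPM in K14/hyal1 and 599 CPM in Control. All 10 passed a filter at a mean of 2.31 CPM, the median of all symbols above 0. On the scale log2((K14/hyal1 + 1)/(Control + 1)), used for all calls, 5 of 10 reached a 2-fold higher level in K14/hyal1 (Spon2, Thbs1, Thbs3, Thbs2 and Tnc) and 0 a 2-fold lower one. The same calls took in 3.75% (509, higher) and 1.54% (209, lower) of the 13563 genes that passed. The median log2 ratio of the members was 1.03, beside 0.21 over all genes past the filter. Since the median gene was itself higher in K14/hyal1, the count depends on the scaling: with that median set to 0, 2 of 10 members (Spon2 and Thbs1) were at least 2-fold higher and 0 lower, against 2.22% (301) of all genes higher and 2.55% (346) lower. The 9 members above 0 stayed above it under that scaling, Spon1 at a log2 ratio of 0.05 and Sparcl1 at 0.09.

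**Figure D1:**
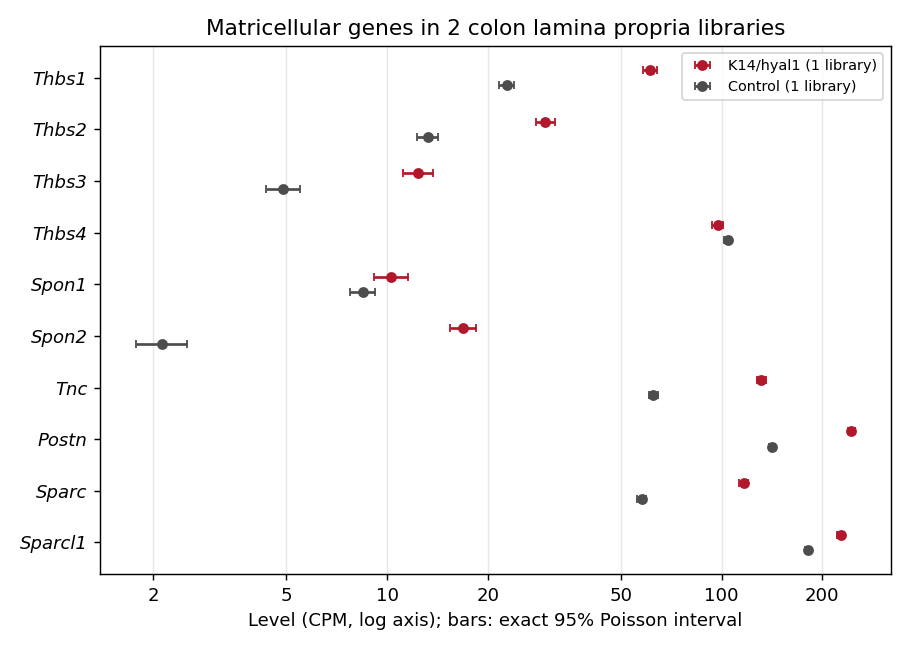
Level of each member in CPM on a log axis in the K14/hyal1 library (red) and the Control library (grey), with exact 95% Poisson intervals as bars. The intervals of the 2 libraries overlap for Spon1 and for no other member, are close for Thbs4, and the widest gap is that of Spon2, with 16.9 CPM in K14/hyal1 and 2.13 CPM in Control.

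Thbs1, on chromosome 2 at 118111876-118127133 (mm10, plus strand), had 61.0 CPM in K14/hyal1 (58.2 to 63.9, 1770 estimated reads) and 22.8 CPM in Control (21.6 to 24.0, 1390 estimated reads). The ratio was 2.68 (2.50 to 2.88), and 1.60% of genes past the filter had a higher log2 ratio. Thrombospondin 1 is stored in platelets as well as made by stromal cells. Of 5 platelet markers only Pf4, which macrophages also express, passed the filter, at 7.82 CPM in K14/hyal1 and 0.851 CPM in Control. The platelet genes Ppbp and Gp9 had 2 estimated reads each in K14/hyal1, and 0 and 3 in Control. The remaining platelet markers were detected at like levels in both libraries, Itga2b at 0.758 CPM in K14/hyal1 and 0.591 CPM in Control and Gp1bb at 1.58 CPM in K14/hyal1 and 1.55 CPM in Control.

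Thbs2, the close relative of Thbs1, lies on chromosome 17 at 14665500-14694235 (minus strand) and has a single row in the table. It had 29.7 CPM in K14/hyal1 (27.8 to 31.8) and 13.2 CPM in Control (12.3 to 14.2), a ratio of 2.25 (2.04 to 2.48). The lower bound of that interval lies just above 2. In deposited CPM both trimeric thrombospondins were thus more than 2-fold higher, Thbs1 by the larger ratio. After scaling to the median gene the log2 ratio of Thbs2 was 0.89, under the 2-fold line, and that of Thbs1 was 1.15.

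The pentameric thrombospondins differed from each other. Thbs3, on chromosome 3 at 89215180-89226837 (plus strand), had 12.4 CPM in K14/hyal1 (11.1 to 13.7) and 4.90 CPM in Control (4.35 to 5.48), a ratio of 2.52 (2.16 to 2.96). Of its 10 transcript rows, 9 were higher in K14/hyal1. Mtx1, a mitochondrial import gene on the opposite strand, shares 318 exon bases with Thbs3 and had 10.3 CPM in K14/hyal1 and 8.71 CPM in Control. The use of strand in counting is not stated, so reads from the shared bases cannot be told apart.

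Thbs4, a thrombospondin known from tendon, muscle and nerve, lies on chromosome 13 at 92751590-92794818 (minus strand). It had 97.4 CPM in K14/hyal1 (93.9 to 101) and 104 CPM in Control (102 to 107), a ratio of 0.933 (0.893 to 0.976). Its log2 ratio of -0.10 was exceeded by 77.3% of genes past the filter. Thbs4 was the most abundant thrombospondin per length in both libraries, as given below.

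The spondins also differed from each other. Spon2, which encodes mindin, a matrix protein that binds bacterial surfaces and leukocyte integrins, lies on chromosome 5 at 33198184-33218455 (minus strand). It had 16.9 CPM in K14/hyal1 (15.4 to 18.4, 490 estimated reads) and 2.13 CPM in Control (1.78 to 2.53, 130 estimated reads), a ratio of 7.94 (6.53 to 9.71). It ranked 34 of 13563 genes by log2 ratio. Its position depends on the pseudocount because the Control level is low: the log2 ratio of 2.52 became 1.15 with a pseudocount of 10, still the highest of the members. Spon1, which encodes F-spondin, a protein of axon guidance, lies on chromosome 7 at 113765998-114043370 (plus strand). It had 10.3 CPM in K14/hyal1 (9.17 to 11.5) and 8.44 CPM in Control (7.73 to 9.21), a ratio of 1.22 (1.05 to 1.41), near the middle of all genes.

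Tnc and Postn, which encode tenascin C and periostin, were both abundant and higher in K14/hyal1. Tnc, on chromosome 4 at 63959785-64047015 (minus strand), had 131 CPM in K14/hyal1 (127 to 136) and 62.4 CPM in Control (60.5 to 64.4), a ratio of 2.10 (2.01 to 2.20). Postn, on chromosome 3 at 54361109-54391037 (plus strand), had 244 CPM in K14/hyal1 (238 to 250) and 142 CPM in Control (139 to 145), a ratio of 1.72 (1.67 to 1.78).

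Sparc stood on the 2-fold line. It lies on chromosome 11 at 55394500-55423183 (minus strand) and had 116 CPM in K14/hyal1 (112 to 120) and 57.7 CPM in Control (55.8 to 59.6). Its plain ratio was 2.02 (1.92 to 2.11) and its log2 ratio 0.999, so it was just short of the 2-fold call, and Tnc, at 1.06, just past it. Sparcl1, on chromosome 5 at 104079111-104113733 (minus strand), had 227 CPM in K14/hyal1 (222 to 233) and 181 CPM in Control (178 to 185), a ratio of 1.25 (1.22 to 1.29). The SPARC relatives thus had different ratios between these 2 libraries, as the spondins did. Their intervals do not overlap, but these cover counting error only and not the spread between animals.

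**Figure D2:**
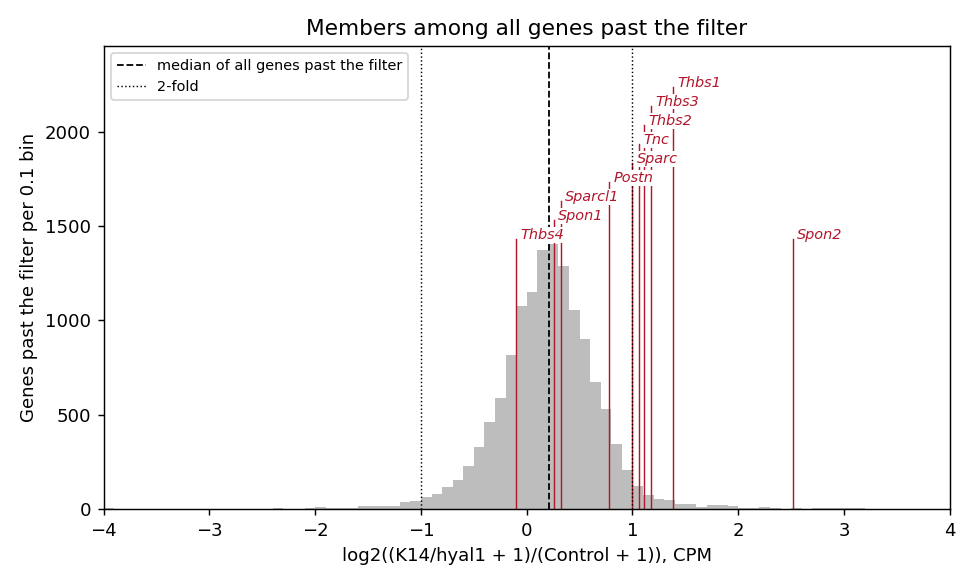
Histogram of log2((K14/hyal1 + 1)/(Control + 1)) over 13563 genes past the filter in bins of 0.1, with values beyond the axis placed in the end bins, and the 10 members as red lines. Thbs4 lies left of the median of all genes (dashed, 0.21), Spon1 and Sparcl1 just right of it, Sparc at the 2-fold line, and Spon2 at 2.52.

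Levels of different genes can be set side by side only per length, here as CPM per kb of the principal GENCODE M21 transcript. On that scale Sparcl1 was highest in both libraries, at 82.3 in K14/hyal1 and 65.7 in Control, followed by Postn at 76.1 in K14/hyal1 and 44.2 in Control. Sparc had 50.6 CPM per kb in K14/hyal1 and 25.1 in Control, and Thbs4 30.5 in K14/hyal1 and 32.6 in Control, so that Sparc ranked 3 in K14/hyal1 and 4 in Control, and Thbs4 the reverse. Tnc (18.5 in K14/hyal1, 8.79 in Control) and Thbs1 (10.4 in K14/hyal1, 3.89 in Control) came next in both libraries. Spon2 ranked 7 in K14/hyal1 at 8.26 and last in Control at 1.04. Thbs2 had 5.04 in K14/hyal1 and 2.24 in Control, Thbs3 3.87 in K14/hyal1 and 1.54 in Control, and Spon1, last in K14/hyal1, 1.67 in K14/hyal1 and 1.37 in Control. In K14/hyal1 the counting intervals of neighbours in this order did not overlap, and in Control those of Thbs3 (1.36 to 1.72) and Spon1 (1.25 to 1.49) did. The order rests on the length used: with the median length of the coding transcripts, Sparc stood above Postn in K14/hyal1 (87.1 and 78.2 CPM per kb), and Spon2 above Thbs1 there (11.6 and 10.4 CPM per kb). With that length Sparc also stood above Thbs4 in Control (43.2 and 32.6 CPM per kb), so the exchange of their ranks between the libraries is lost.

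The transcript rows of a gene give a second view, although the rows carry no transcript names and the authors' assignment of reads to them is not described. Of 39 rows, 34 were higher in K14/hyal1. The 4 rows of Tnc, a gene known for alternative splicing of its fibronectin-type repeats, had ratios between 1.96 and 2.40, close to each other. In Postn, which is known for alternative splicing near its C-terminal end, 5 of 7 rows had ratios between 1.83 and 2.19, and the other 2 rows were lower in K14/hyal1. The fourth row by level had 18.0 CPM in K14/hyal1 and 20.9 CPM in Control, a ratio of 0.863 (0.778 to 0.956). The fifth had 3.53 CPM in K14/hyal1 and 6.57 CPM in Control, a ratio of 0.538 (0.427 to 0.667). They made up 7.38% and 1.45% of Postn in K14/hyal1, against 14.7% and 4.63% in Control. The other 5 rows, set apart after their values were seen, summed to 222 CPM in K14/hyal1 and 114 CPM in Control, a ratio of 1.95. In Spon2 the second row had 4.78 CPM in K14/hyal1 and 0.332 CPM in Control, and the most abundant row 11.3 CPM in K14/hyal1 and 1.44 CPM in Control, so both of the larger rows shared the difference. The fourth and smallest row of Spon2 had 0.243 CPM in K14/hyal1 and 0.234 CPM in Control.

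**Figure D3:**
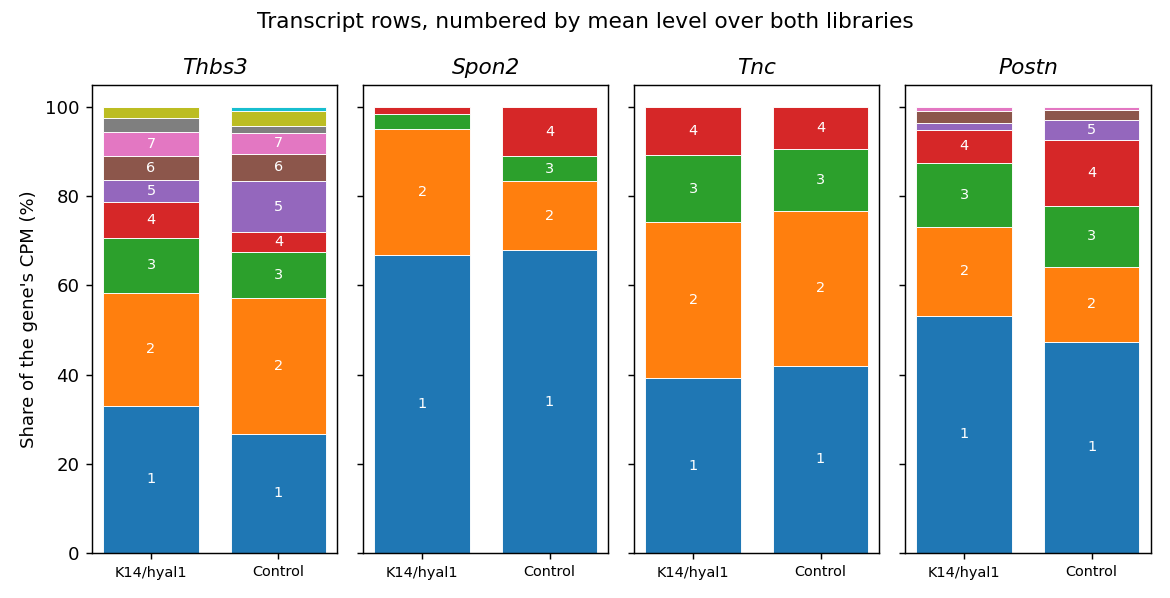
Share of each gene's CPM held by its transcript rows in the K14/hyal1 library (left bar) and the Control library (right bar) for Thbs3, Spon2, Tnc and Postn, rows numbered by mean level. The shares of Tnc are alike in both libraries, while row 4 of Postn holds 7.38% in K14/hyal1 and 14.7% in Control, and row 2 of Spon2 holds 28.3% in K14/hyal1 and 15.6% in Control.

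Other matricellular genes, from a list of 22, were mostly higher as well. Of the 13 that passed the filter, 5 reached 2-fold higher in K14/hyal1 and 0 lower, beside 3.75% and 1.54% of all genes, with a median log2 ratio of 0.85. Fstl1, a secreted relative of SPARC, was highest, with 81.4 CPM in K14/hyal1 and 28.0 CPM in Control, a ratio of 2.91 (2.73 to 3.10). Nov, Cyr61 and Ctgf of the CCN family, whose products bind integrins and growth factors, were next. Nov had 8.72 CPM in K14/hyal1 and 3.01 CPM in Control, and Ctgf 29.8 CPM in K14/hyal1 and 12.8 CPM in Control. Cyr61 had a ratio of 2.66 (2.23 to 3.18). Wisp1 of the same family passed the filter and was short of the 2-fold call, at a log2 ratio of 0.73. Fbln5, an elastic fibre protein, had 5.38 CPM in K14/hyal1 and 2.11 CPM in Control. The lowest was Mgp, which inhibits calcification, at a ratio of 1.06 (0.926 to 1.22), whose sign was not fixed because its log2 ratio of 0.08 became -0.13 after scaling to the median gene. After that scaling 2 of the 13 were at least 2-fold higher, Fstl1 and Nov, beside 2.22% of all genes.

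Among receptors of these proteins, all 22 passed the filter, and 3 reached 2-fold higher in K14/hyal1 and 0 lower, beside 3.75% and 1.54% of all genes, with a median log2 ratio of 0.46. After scaling to the median gene 3 were at least 2-fold higher, beside 2.22% of all genes. Cd36, the thrombospondin receptor that fat cells, macrophages and capillaries express, had 19.1 CPM in K14/hyal1 and 3.58 CPM in Control, a ratio of 5.34 (4.56 to 6.27). Itgam and Itgb2, the chains of a leukocyte integrin that binds mindin, had ratios of 4.46 (3.57 to 5.58) and 3.90 (3.03 to 5.06). Cd47, another thrombospondin 1 receptor, had 25.6 CPM in K14/hyal1 and 29.8 CPM in Control, a ratio of 0.861 (0.789 to 0.938). The lowest was Itgb6, an epithelial integrin chain that binds tenascin C and latent TGF-beta, with 26.9 CPM in K14/hyal1 and 40.3 CPM in Control, a log2 ratio of -0.57.

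Ligands and matrix partners were led by Dcn and Col3a1. Of 20, 18 passed the filter, 2 reached 2-fold higher in K14/hyal1 and 0 lower, beside 3.75% and 1.54% of all genes, and the median log2 ratio was 0.56. Dcn, a collagen-binding proteoglycan, had 198 CPM in K14/hyal1 and 53.2 CPM in Control, and Col3a1 425 CPM in K14/hyal1 and 158 CPM in Control. Col1a1, the main fibrillar collagen bound by SPARC, was lowest, with 28.7 CPM in K14/hyal1 and 42.0 CPM in Control, a ratio of 0.684 (0.632 to 0.740), while Col1a2, its partner chain, had a ratio of 1.52 (1.45 to 1.59). Tgfb1, whose latent form thrombospondin 1 can activate, had 2.72 CPM in K14/hyal1 and 3.34 CPM in Control (ratio 0.815, 0.621 to 1.06).

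**Figure D4:**
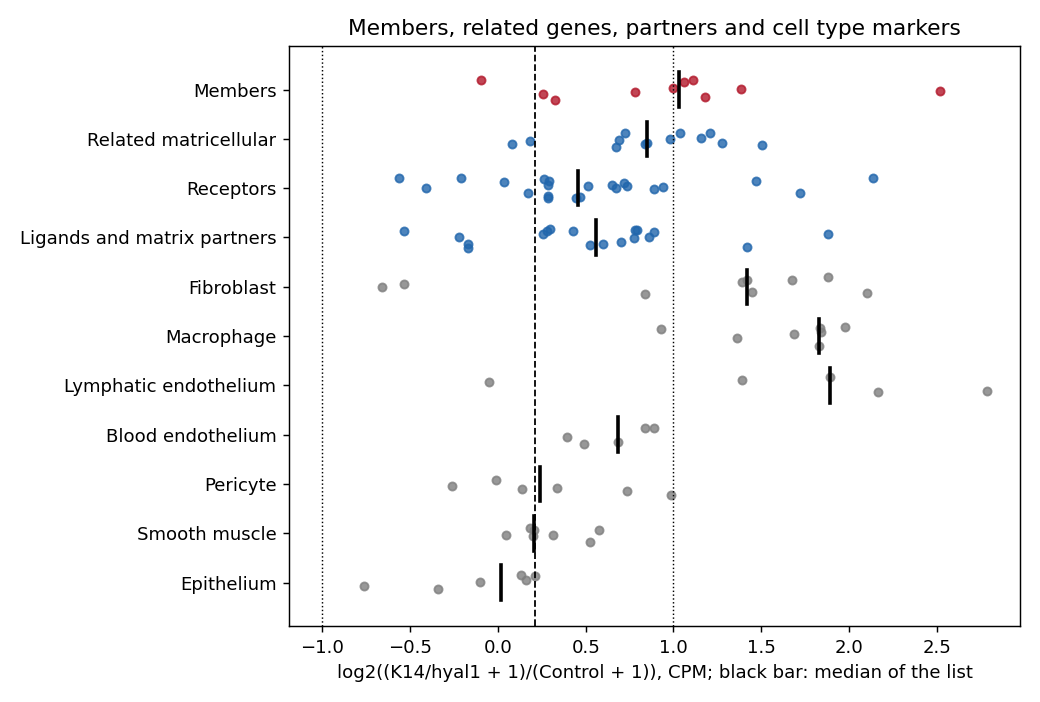
Log2 ratio of each gene past the filter (points) and the median of its list (black bars) for the members, 3 lists of related genes and partners, and marker lists of 7 cell types, with the median of all genes dashed and 2-fold dotted. The members' median is 1.03, above those of receptors (0.46), smooth muscle (0.20) and epithelium (0.02) and below those of fibroblast (1.42) and macrophage (1.83) markers.

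Among cell type markers, the fibroblast, macrophage and lymphatic endothelial lists held most of the 2-fold calls, beside 3.75% (higher) and 1.54% (lower) of all genes. The 9 fibroblast markers summed to 887 CPM in K14/hyal1 and 371 CPM in Control, a ratio of 2.39, with 6 at least 2-fold higher, 0 lower, and Col1a1 and Ly6a below 1. The 7 macrophage markers summed to 205 CPM in K14/hyal1 and 55.3 CPM in Control (6 at least 2-fold higher), and the 5 lymphatic endothelial markers to 82.0 CPM in K14/hyal1 and 16.9 CPM in Control (4 higher). After scaling to the median gene the fibroblast, macrophage and lymphatic counts stayed at 6, 6 and 4, beside 2.22% of all genes. Blood endothelial markers summed to 62.6 CPM in K14/hyal1 and 37.5 CPM in Control (0 of 5 past the filter at 2-fold), pericyte markers to 185 CPM in K14/hyal1 and 149 CPM in Control (0 of 6), and smooth muscle markers to 3602 CPM in K14/hyal1 and 3074 CPM in Control (0 of 7). Glial markers summed to 6.86 CPM in K14/hyal1 and 7.99 CPM in Control, platelet markers to 10.3 CPM in K14/hyal1 and 3.04 CPM in Control, and mesothelial markers to 0.0750 CPM in K14/hyal1 and 0.262 CPM in Control, near 0 in both. Their part in the members' ratios was not tested, and in bulk tissue more cells of a type and more RNA per cell cannot be told apart.

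Set against the fibroblast markers, Spon2 and Thbs1 were the members whose interval lay above 1. Per 1000 CPM of summed fibroblast markers, Spon2 had 19.0 CPM in K14/hyal1 and 5.74 CPM in Control, a ratio of 3.31 (2.73 to 4.05). Thbs1 had 68.8 CPM in K14/hyal1 and 61.4 CPM in Control (ratio 1.12, 1.04 to 1.20). For Thbs3 and Thbs2 the intervals held 1, with ratios of 1.05 (0.903 to 1.24) and 0.939 (0.852 to 1.04). Tnc, Sparc and Postn were lower per fibroblast marker, at 0.879, 0.842 and 0.719. Sparcl1, Spon1 and Thbs4 were lowest, at 0.524, 0.510 and 0.390. This scaling was added after the data were seen, and the intervals leave out the error of the marker sum. That sum rests mostly on Col3a1 (425 CPM in K14/hyal1, 158 CPM in Control) and Dcn (198 CPM in K14/hyal1, 53.2 CPM in Control). The ratios per fibroblast marker, that of Thbs1 near 1 among them, therefore depend on the markers summed.

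**Figure D5:**
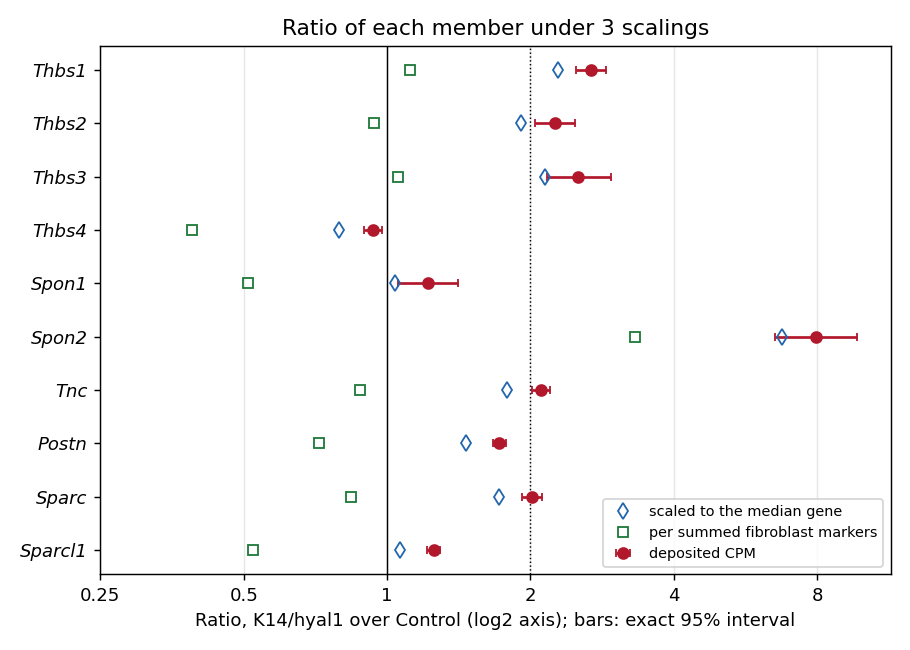
Ratio of each member, K14/hyal1 over Control, on a log2 axis for deposited CPM (red, with exact 95% intervals), after scaling to the median gene (blue) and per summed fibroblast markers (green), with solid and dotted lines at 1 and 2. Per fibroblast marker Spon2 remains at 3.31 while Thbs4 lies at 0.390.

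The authors' deposited gene table held the same means and ratios for all 10 members, with false discovery rates from a model that is not described. A rate under 0.05 was given in the authors' deposited table for 4 members, Postn (4.34e-05), Tnc (0.000177), Sparc (0.00136) and Thbs1 (0.00456), where 2.26% of its 15869 rows did. Spon2, which had the largest ratio, did not reach that rate in the authors' deposited table, and neither did Thbs2 or Thbs3. These rates compare 2 libraries, not 2 genotypes.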

How the data were processed

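Poly(A) RNA libraries of 1 K14/hyal1 and 1 Control colon lamina propria sample were made with a TruSeq stranded kit after PureLink extraction and run on an Illumina HiSeq instrument, per the labels' protocols. The submitters' processing notes name Partek and mm10. The aligner, the counting rule, its strand setting and tool versions were not given in the sources used here. Normalized counts were deposited by the authors for 72178 transcript rows without naming the unit. They were read as CPM because low values are multiples of 1 step per library, 0.0345 in K14/hyal1 and 0.0164 in Control, above an offset of 0.0001 in each deposited row, which was taken off. The deposited columns summed to 475975 CPM in K14/hyal1 and 416434 CPM in Control, under the 1000000 of a whole library. Of gene values up to 300 reads, 82.9% in K14/hyal1 and 81.6% in Control came out whole to within 0.1 read, so reads are estimates and no count test was applied. The authors' gene table also gives a ratio, a signed fold change score, p-values and false discovery rates. Its headers compare K14/Hyal1 by Control with Control by Control, and the second term, Control on both sides, is not explained. A further deposited colon table and a sheet on skin were not used here.

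Rows were summed by symbol, with a pseudocount of 1 CPM for log2 ratios. Levels have exact Poisson intervals and ratios Clopper-Pearson ones, at 95%. Both cover counting error alone, since each genotype had 1 library. Reads that carry no molecular identifier are not independent molecules, so the intervals can be too narrow even for that error. The steps were also run on simulated whole counts with Poisson error alone. Such counts are simpler than the deposited values, which are not all whole, and that run does not check the scalings. Alternatives were other pseudocounts, filters, thresholds and scalings, single transcript rows and the authors' gene table. The members, the 3 lists of related genes and the 10 marker lists were chosen with earlier results of these data known. In those 3 lists the text names the genes at 2-fold in either direction and the highest and lowest; other named genes of the lists (Wisp1, Cd47, Col1a2, Tgfb1) were chosen after their values were seen. The fibroblast list shares Col1a1, Col3a1 and Dcn with the partners and Fbln1 with the related genes. Coordinates, strands and lengths are from GENCODE M21 on mm10, and promoters from RefSeq. Scripts ran under Python 3.11.15 with scipy 1.17.1, numpy 2.4.6, pandas 2.3.3 and, for plots, matplotlib 3.10.9.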

Additional observations from a re-analysis of the deposited data

How the results depend on the processing

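With 1 library per genotype, no library could be left out, and depth limits the low genes most: Spon2 rested on 130 estimated reads in Control and Thbs3 on 299. The count of members at least 2-fold lower was 0 under each alternative other than the fibroblast scaling below, and the count of members at least 2-fold higher stayed within 1.5 times of 5 with a pseudocount of 0.1 (6), with the most abundant transcript row of each gene (4), with the authors' gene table, without a filter, at a 1.5-fold threshold (7) and when the whole counting interval had to pass 2-fold (5). The authors' gene table holds the same levels, and all 10 members pass the main filter, so neither that table nor dropping the filter could change these counts. The count of members at least 2-fold higher was 2 with a pseudocount of 10 and 2 after scaling to the median gene. It was 3 after TMM scaling and 3 after scaling to totals without the 20 most abundant genes. With the filter at a mean of 10 CPM, which leaves out Thbs3, Spon1 and Spon2, it was also 3. Shares of all genes at least 2-fold higher were worked out for the main setting (3.75%) and the median gene scaling (2.22%) only. Counts under the other settings therefore describe the members alone and cannot be set against all genes. The 1.5-fold threshold is also easier to reach for any gene. The median log2 ratio of 1.03 was 0.76 with a pseudocount of 10, 0.80 after scaling to the median gene, 0.84 after TMM scaling and 0.87 after scaling to totals without the 20 most abundant genes. The scalings divide K14/hyal1 by 1.18, 1.14 and 1.12, which takes Thbs2 and Tnc under the 2-fold line in each. Scaling to the summed fibroblast markers, added after the data were seen, left 1 member at least 2-fold higher (Spon2) and 1 at least 2-fold lower (Thbs4), with a median of -0.21; 6 members that were above 0 turned below it, Thbs2 to -0.084, Tnc to -0.18, Sparc to -0.24, Postn to -0.47, Spon1 to -0.83 and Sparcl1 to -0.93. No paired analysis was possible because each genotype has 1 library.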

Other observations

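Some related genes below the filter differed between the libraries at low read counts, and they were chosen after their values were seen. On the log2(CPM + 1) scale none of those named here reached 2-fold. Mmp9 was at 0.78, Spock3 at 0.63, Spp1 at 0.23 and Spock1 at -0.67, beside a median of 0.21 over genes past the filter. No share of all genes below the filter was worked out. Mmp9, a matrix metalloproteinase, had 1.10 CPM in K14/hyal1 (32 estimated reads) and 0.221 CPM in Control (13 estimated reads), a ratio with an interval from 2.65 to 10.8. Spp1, which encodes osteopontin, a matricellular ligand of integrins, had 5 estimated reads in K14/hyal1 and 0 in Control, where 3 reads are worth 0.0491 CPM. Spock1, a proteoglycan of the SPARC family, went the other way, with 0.184 CPM in K14/hyal1 and 0.881 CPM in Control, a ratio of 0.208 (0.0609 to 0.484). Its relative Spock3 had 1.89 CPM in K14/hyal1 and 0.868 CPM in Control, a ratio of 2.18 (1.47 to 3.25).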
